A study of Mus musculus with 9 samples.

Results

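The genes described here are 10 transcription factors that specify the neural crest or drive epithelial-to-mesenchymal transition: Snai1, Snai2, Twist1, Twist2, Zeb1, Zeb2, Tfap2a, Tfap2b, Tfap2c and Foxd3. They were chosen by symbol in the platform annotation, which gave 23 of 45037 probe sets and 10 of 18193 genes. The series comprises 9 Affymetrix arrays hybridised with RNA of passage 3 neurospheres, which are floating colonies of dividing progenitors, from C57BL/6J embryos at embryonic day 12.5. BMP NCSC spheres came from dorsal root ganglia (DRG) and grew in serum-free medium with 20 ng/ml bFGF, 20 ng/ml EGF and 10 ng/ml BMP4, a bone morphogenetic protein. rNCSC spheres came from DRG and grew in that medium without BMP4. SCSC spheres came from spinal cord and grew in the same BMP4-free medium. Each kind of sphere had 3 arrays. All 9 arrays thus share strain, age, passage, bFGF and EGF, and a sphere holds whatever mixture of cells grew from the tissue. The labels do not say whether replicate arrays are separate embryos or cultures, and where they are not, a p-value reflects technical spread. Sex-linked genes differed among the 3 rNCSC arrays and set SCSC 2 apart from the other SCSC arrays, so these arrays did not all carry RNA of 1 pool of cells per group.

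The neural crest arises at the border of the neural tube, leaves the epithelium and forms the sensory ganglia, peripheral glia, pigment cells and, in the head, cartilage and bone. Tfap2 and Foxd3 factors act early in its specification. Snail, Twist and Zeb factors repress epithelial genes such as Cdh1, which encodes E-cadherin, and are known for the loss of epithelial contacts. Zeb1 and Zeb2 are also used by neural progenitors of the brain and spinal cord, so neither is confined to the crest.

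Promoter sequences of 7 of the 10 genes were found in the RefSeq table (build GRCm38.p6, 250 bases before each gene start and 50 from it). Snai2, Zeb1 and Tfap2c are named only. A start is position 1 and the base before it -1. Both strands were searched for CACCTG, the E2 box that Snail and Zeb proteins read, for GCCNNNGGC, the element of Tfap2 proteins, and for GGCGCC, a GC-rich element read by Smads, the mediators of BMP signals. No 2 matches overlapped. For Snai1, Twist1, Tfap2a, Tfap2b and Zeb2, 1 start each is printed 5′ to 3′ along the gene, with matches in capitals. Twist2, with GCCNNNGGC at -80, and Foxd3, with no match, are not printed. Zeb2 starts 1 and 4 held none of the motifs and are not printed either. Snai1 (chr2:167537945-167538244, plus strand) held CACCTG at -126 and GCCNNNGGC at -87. Twist1 (chr12:33957421-33957720, plus strand) and Tfap2a (second start, chr13:40733746-40734045, minus strand) held none of the motifs, Tfap2b (chr1:19211804-19212103, plus strand) held GGCGCC at 41, and Zeb2 (second of 4 starts, chr2:45113230-45113529, minus strand) held GCCNNNGGC at -81.
Snai1: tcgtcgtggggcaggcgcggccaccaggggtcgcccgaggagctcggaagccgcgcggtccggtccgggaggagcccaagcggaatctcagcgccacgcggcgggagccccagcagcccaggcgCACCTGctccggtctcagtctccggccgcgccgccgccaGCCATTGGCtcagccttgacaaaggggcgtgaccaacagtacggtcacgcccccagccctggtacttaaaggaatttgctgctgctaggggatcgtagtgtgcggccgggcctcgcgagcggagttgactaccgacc
Twist1: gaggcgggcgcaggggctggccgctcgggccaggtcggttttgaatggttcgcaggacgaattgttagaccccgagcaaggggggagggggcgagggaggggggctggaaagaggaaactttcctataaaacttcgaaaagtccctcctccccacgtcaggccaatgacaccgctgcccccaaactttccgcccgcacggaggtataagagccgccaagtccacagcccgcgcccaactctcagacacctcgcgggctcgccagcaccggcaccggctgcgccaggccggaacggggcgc
Tfap2a: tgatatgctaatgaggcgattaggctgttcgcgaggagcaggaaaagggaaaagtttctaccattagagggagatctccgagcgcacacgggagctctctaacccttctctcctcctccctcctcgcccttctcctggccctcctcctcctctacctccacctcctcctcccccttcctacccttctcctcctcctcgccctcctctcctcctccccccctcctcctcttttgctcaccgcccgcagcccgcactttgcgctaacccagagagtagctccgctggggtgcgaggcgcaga
Tfap2b: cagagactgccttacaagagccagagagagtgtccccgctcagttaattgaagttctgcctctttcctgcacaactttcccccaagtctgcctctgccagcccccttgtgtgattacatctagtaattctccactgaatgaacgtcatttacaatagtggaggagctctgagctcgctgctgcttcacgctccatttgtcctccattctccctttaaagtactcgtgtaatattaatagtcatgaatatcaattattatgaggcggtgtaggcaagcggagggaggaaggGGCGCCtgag
Zeb2: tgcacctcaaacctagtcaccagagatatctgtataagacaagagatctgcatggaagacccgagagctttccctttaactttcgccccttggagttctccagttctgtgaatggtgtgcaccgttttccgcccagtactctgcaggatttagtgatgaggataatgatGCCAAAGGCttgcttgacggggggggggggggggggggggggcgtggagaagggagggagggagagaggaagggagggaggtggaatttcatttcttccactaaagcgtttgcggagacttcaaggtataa

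Among the 11 starts of these 7 genes, CACCTG was found in 1, GCCNNNGGC in 4 and GGCGCC in 1. Of 32851 promoters in the table, 20.2% held CACCTG, 16.6% held GCCNNNGGC and 11.9% held GGCGCC. Zeb2 starts 2 and 3 lie close together and share their match. The 4 starts with GCCNNNGGC therefore hold 3 separate sites, in Snai1, Twist2 and Zeb2. A match describes the letters in the window and no binding, and the E2 box stood in the promoter of Snai1 alone among these 7 genes.

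The deposited values are log2 GCRMA values, and array medians lay between 3.98 and 4.03. GCRMA draws unexpressed transcripts together near the lower end of this scale, the floor, so the size of a difference with a group mean under 4 depends on the background correction. The number of arrays limits the precision. A probe set was tested when it reached 5 on at least 3 arrays, and it was called at an adjusted p below 0.05 in limma and a difference of at least 1 on the log2 scale, which is 2-fold. Among rNCSC arrays the third correlated least with its group (mean Pearson r over probe sets 0.973, against 0.982 and 0.978 for the first and second). It also had 60 genes at least 2 above both others, against 4 and 26. The rNCSC 2 and rNCSC 3 arrays each carry a signal of some factors below, and those results are given with and without them. Id1, a known target of BMP signals, read 11.94, 12.04 and 11.85 in BMP NCSC, 9.38, 8.61 and 8.24 in rNCSC, and 7.43, 7.66 and 7.42 in SCSC.

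**Figure D1:**
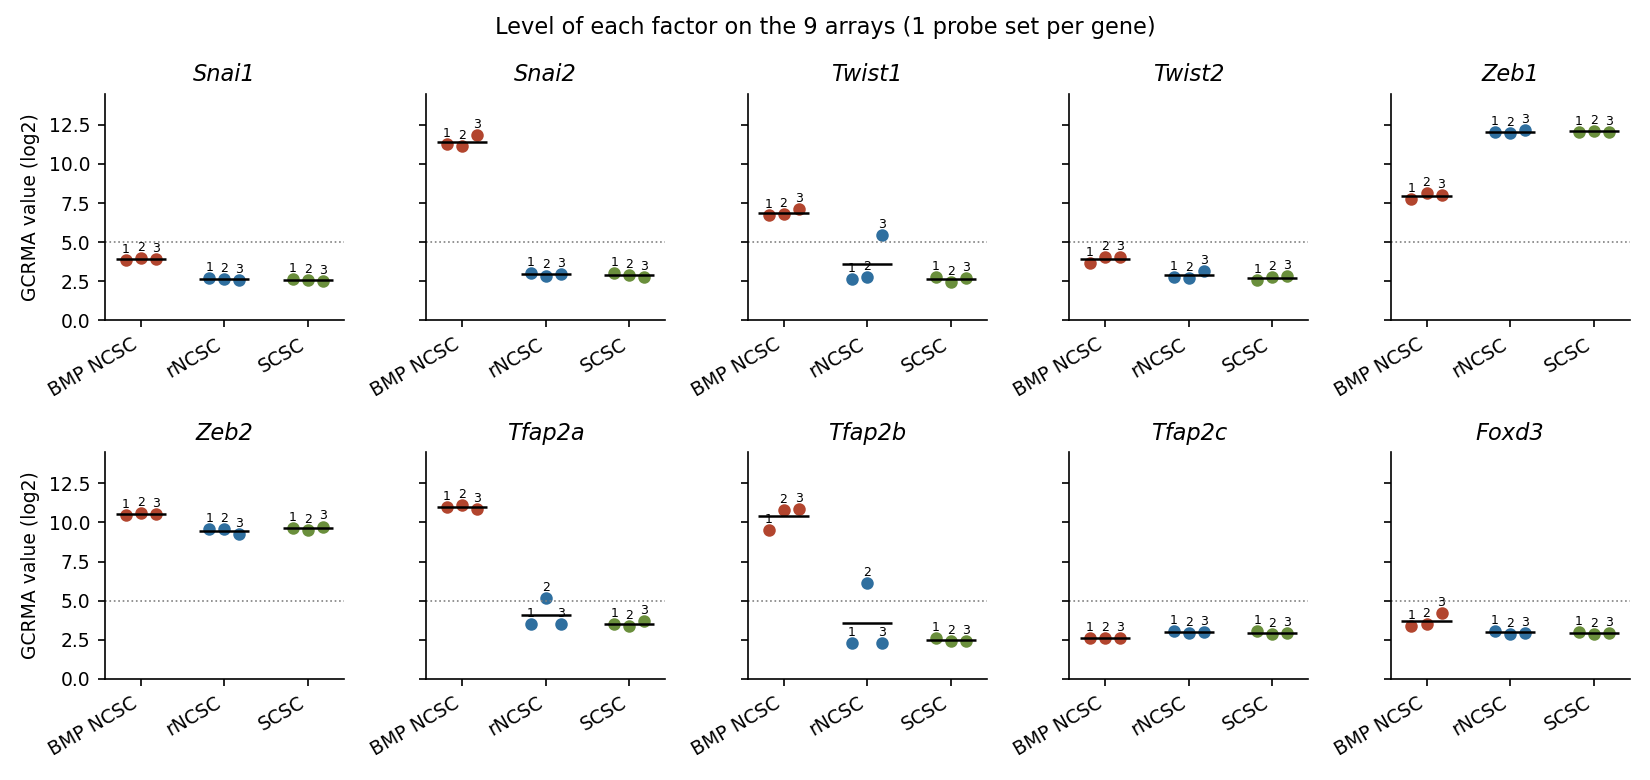
GCRMA value (log2) of each factor on the 9 arrays, for the probe set with the highest mean per gene. Points are arrays, numbered by replicate, bars are group means and the dotted line is the filter level of 5. Snai2, Twist1, Tfap2a and Tfap2b lie higher in BMP NCSC, Zeb1 lies lower there, and Snai1, Twist2, Tfap2c and Foxd3 stay under 5 on all arrays.

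The first question was how BMP4 changed these genes in DRG spheres. Snai2, Twist1, Tfap2a and Tfap2b were higher in BMP NCSC than in rNCSC, Zeb1 was lower, and Zeb2 was modestly higher. Zeb2 was well above the floor in all groups. Of the 15 probe sets tested, 9 were called higher in BMP NCSC and 3 lower, against 20.6% and 21.8% of all 19914 probe sets tested. The 2 sets of 3 arrays were fully separated for 14 of the 15, against 77.3% of all. Passing the filter fixed part of this: 8 of the 15 reached it only through BMP NCSC (Snai2, Twist1, Tfap2a, Tfap2b and 1 set of Zeb2), 2 only through rNCSC and SCSC (Zeb1), and 5 either way (1 of Zeb1 and 4 of Zeb2). With no filter, over all 23 probe sets, 11 were called higher, 3 lower and 9 neither, where 10.8% and 10.7% of 45037 probe sets were called. The median difference was then 0.95 over the 23 sets and -0.06 over all probe sets, and the median absolute difference 1.29 against 0.29. BMP NCSC differed from rNCSC in a large share of all genes. These are bulk samples, in which fewer cells of a type and less RNA per cell cannot be told apart.

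The Snail family encodes zinc finger repressors, and Snai2 (also known as Slug) is the member most used by premigratory and migrating crest of the chick. Its probe set 1418673_at read 11.29, 11.12 and 11.85 in BMP NCSC, 3.01, 2.87 and 2.99 in rNCSC, and 3.03, 2.88 and 2.78 in SCSC. All 6 arrays without BMP4 sat at the lower end of the scale, and all 3 BMP NCSC arrays were far above them. The mean was 11.42 ± 0.38 in BMP NCSC and 2.96 ± 0.078 in rNCSC (SD, n = 3 each), a difference of 8.46 (SE 0.18, limma adjusted p = 2e-09). The second set, 1447643_x_at, gave 11.96, 12.21 and 12.27 in BMP NCSC, 2.03, 2.56 and 2.17 in rNCSC, and 2.72, 2.48 and 2.4 in SCSC. Both probe sets thus separated the same arrays, and the second differed by 9.9 (SE 0.16, adjusted p = 5.7e-10). Against SCSC the differences were 8.52 (adjusted p = 2e-09) and 9.62 (adjusted p = 6.4e-10).

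Snai1, the family member needed for gastrulation in the mouse, stayed under the filter on all arrays. Its single probe set read 3.88, 3.97 and 3.94 in BMP NCSC, 2.74, 2.62 and 2.57 in rNCSC, and 2.65, 2.6 and 2.55 in SCSC. The BMP NCSC arrays were above all others without overlap, at levels near the floor. In the fit with no filter the difference was 1.29 (SE 0.08, adjusted p = 1.1e-06) against rNCSC and 1.33 (adjusted p = 8.2e-07) against SCSC, and both were called there.

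Twist1 encodes a basic helix-loop-helix factor of head crest mesenchyme and of mesoderm, which pairs with E proteins. It read 6.73, 6.77 and 7.15 in BMP NCSC, 2.64, 2.75 and 5.48 in rNCSC, and 2.75, 2.48 and 2.71 in SCSC. The rNCSC 3 array stood between the groups, while the other rNCSC arrays lay with SCSC. The difference from rNCSC was 3.26 (SE 0.65, adjusted p = 0.0017), and without rNCSC 3 it was 4.19 (adjusted p = 2e-07). Against SCSC it was 4.23 (SE 0.65, adjusted p = 0.00032). Twist2, its close relative in dermis and bone precursors, read 3.66, 4.08 and 4.06 in BMP NCSC, 2.79, 2.71 and 3.14 in rNCSC, and 2.58, 2.76 and 2.84 in SCSC, all under 5. With no filter it was called higher in BMP NCSC, by 1.05 (adjusted p = 0.00034) against rNCSC and 1.21 (adjusted p = 0.00013) against SCSC.

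Zeb1, which is active in neural progenitors of the mouse brain, was the 1 factor called lower in BMP NCSC. Its probe set 1418926_at read 7.77, 8.17 and 7.99 in BMP NCSC, 12.02, 11.99 and 12.16 in rNCSC, and 12.06, 12.13 and 12.06 in SCSC. The gene was thus well above the floor in every group, and lower with BMP4 by 4.08 on the log2 scale, 16.9-fold (difference -4.08, SE 0.12, adjusted p = 9.9e-09). Against SCSC the difference was -4.11 (adjusted p = 9.1e-09). Probe set 1446127_at read 4.94, 4.49 and 4.71 in BMP NCSC, 9.71, 9.89 and 9.41 in rNCSC, and 8.52, 8.69 and 8.81 in SCSC. Probe set 1443005_at read 3.78, 3.77 and 3.75 in BMP NCSC, 6.17, 5.81 and 6.27 in rNCSC, and 6.45, 6.26 and 6.38 in SCSC. These 2 sets fell as well, with differences from rNCSC of -4.95 (adjusted p = 2.2e-08) and -2.32 (adjusted p = 5.5e-07), and both could pass the filter only through the other groups. The fourth set, 1420243_at, lay between 2.7 and 3.09 on all arrays and was not tested.

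Zeb2, the sister gene, encodes a zinc finger protein that binds activated Smads and is needed for crest formation and myelination in the mouse. Its probe set 1422748_at read 10.5, 10.63 and 10.52 in BMP NCSC, 9.56, 9.55 and 9.23 in rNCSC, and 9.63, 9.54 and 9.74 in SCSC. BMP NCSC was above both other groups with no overlap, by 1.11 (SE 0.11, adjusted p = 2.7e-05) against rNCSC, which was called, and by 0.92 (adjusted p = 8.6e-05) against SCSC, which missed the size limit of 1. The other 4 Zeb2 sets ran from 0.78 to 1.35 against rNCSC and from 0.74 to 1.4 against SCSC. Of all 5 sets, 2 were called higher against rNCSC and 3 against SCSC, and none was lower. For 1434298_at the arrays overlapped, with 10.1, 9.52 and 10.36 in BMP NCSC and 9.63, 8.94 and 9.08 in rNCSC (difference 0.78, SE 0.33, adjusted p = 0.06). Its SCSC arrays read 8.57, 8.33 and 9.44, and the call against them was lost without SCSC 2 (0.99, adjusted p = 0.035, under the size limit). The sets thus agreed in direction, and calls turned on differences close to the limit of 1. The direction of Zeb2 was the opposite of that of Zeb1 in the same arrays, for all 5 sets of Zeb2 and the 3 tested sets of Zeb1.

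**Figure D2:**
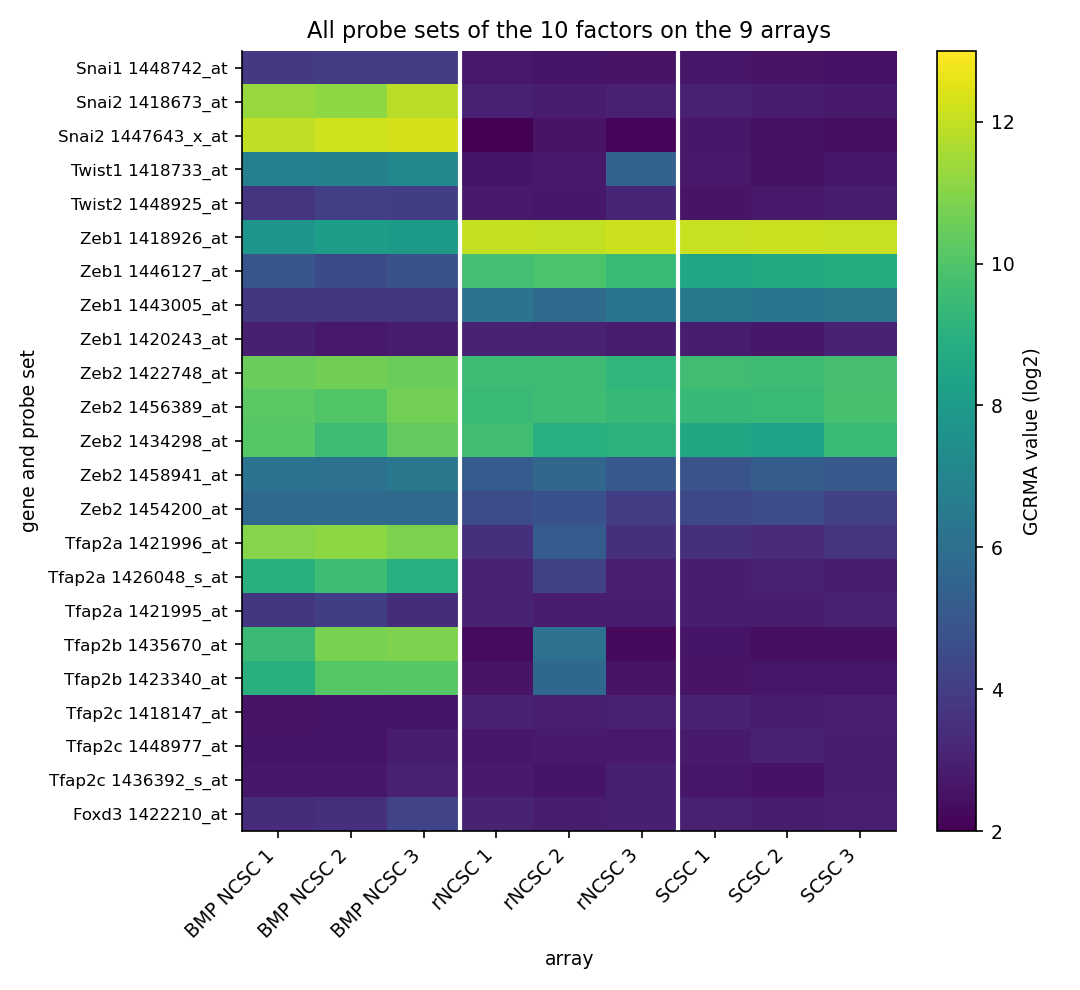
GCRMA value (log2, colour) of all 23 probe sets, in rows by gene, on the 9 arrays, in columns by group. The sets of Snai2, Tfap2b and the 2 tested sets of Tfap2a are bright in BMP NCSC, the tested Zeb1 sets are bright in the other groups, and rNCSC 2 (Tfap2a, Tfap2b) and rNCSC 3 (Twist1) show isolated signals.

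The Tfap2 genes encode AP-2 factors, which bind DNA as dimers and act at the neural plate border, in crest and in skin. Tfap2a probe set 1421996_at read 11.01, 11.11 and 10.84 in BMP NCSC, 3.48, 5.18 and 3.51 in rNCSC, and 3.49, 3.37 and 3.69 in SCSC. The rNCSC 2 array was higher than the other arrays without BMP4 and still far below BMP NCSC. The difference from rNCSC was 6.93 (SE 0.4, adjusted p = 7.1e-07), or 7.49 without rNCSC 2, and from SCSC it was 7.47 (adjusted p = 4.1e-07). Probe set 1426048_s_at behaved alike, with 9.0, 9.57 and 8.92 in BMP NCSC, 3.06, 4.19 and 2.92 in rNCSC, and 2.87, 3.01 and 2.83 in SCSC. Its difference from rNCSC was 5.77 (SE 0.32, adjusted p = 5.4e-07). The third set, 1421995_at, stayed under 5, at 3.8, 4.03 and 3.44 in BMP NCSC against 2.82 to 3.06 in rNCSC and 2.86 to 3.03 in SCSC.

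Tfap2b, which in the mouse is needed for kidney survival and sympathetic neuron development, had the same outlying array. Probe set 1435670_at read 9.51, 10.8 and 10.87 in BMP NCSC, 2.32, 6.14 and 2.28 in rNCSC, and 2.64, 2.43 and 2.44 in SCSC. Of the arrays without BMP4, only rNCSC 2 was above 5. The mean was 10.39 ± 0.77 in BMP NCSC and 3.58 ± 2.2 in rNCSC (SD, n = 3 each), a difference of 6.81 (SE 0.93, adjusted p = 0.00016). Without rNCSC 2 the difference was 8.09 (adjusted p = 9.8e-07), and against SCSC it was 7.89 (adjusted p = 5.9e-05). Probe set 1423340_at repeated the pattern, with 8.99, 10.09 and 10.14 in BMP NCSC, 2.56, 5.73 and 2.59 in rNCSC, and 2.6, 2.66 and 2.65 in SCSC (difference from rNCSC 6.11, SE 0.77, adjusted p = 9.5e-05). Tfap2a and Tfap2b thus read higher on rNCSC 2 than on the other rNCSC arrays, by both probe sets tested of each gene, while Twist1 was at 2.75 there.

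Tfap2c, the AP-2 factor of trophoblast and germ cells, was near the floor by all 3 sets, which ranged from 2.59 to 2.99 in BMP NCSC, 2.63 to 3.08 in rNCSC and 2.52 to 3.04 in SCSC. None was tested. In the fit with no filter none was called, and the set 1418147_at was slightly lower in BMP NCSC than in rNCSC (difference -0.39, adjusted p = 0.0029). Foxd3, a forkhead factor of early crest and glial precursors, read 3.4, 3.5 and 4.2 in BMP NCSC, 3.06, 2.9 and 2.95 in rNCSC, and 3.0, 2.87 and 2.93 in SCSC. The BMP NCSC arrays did not overlap with the others, yet all were under 5, and with no filter the difference of 0.73 (SE 0.19, adjusted p = 0.0099) was below the size limit.

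**Figure D3:**
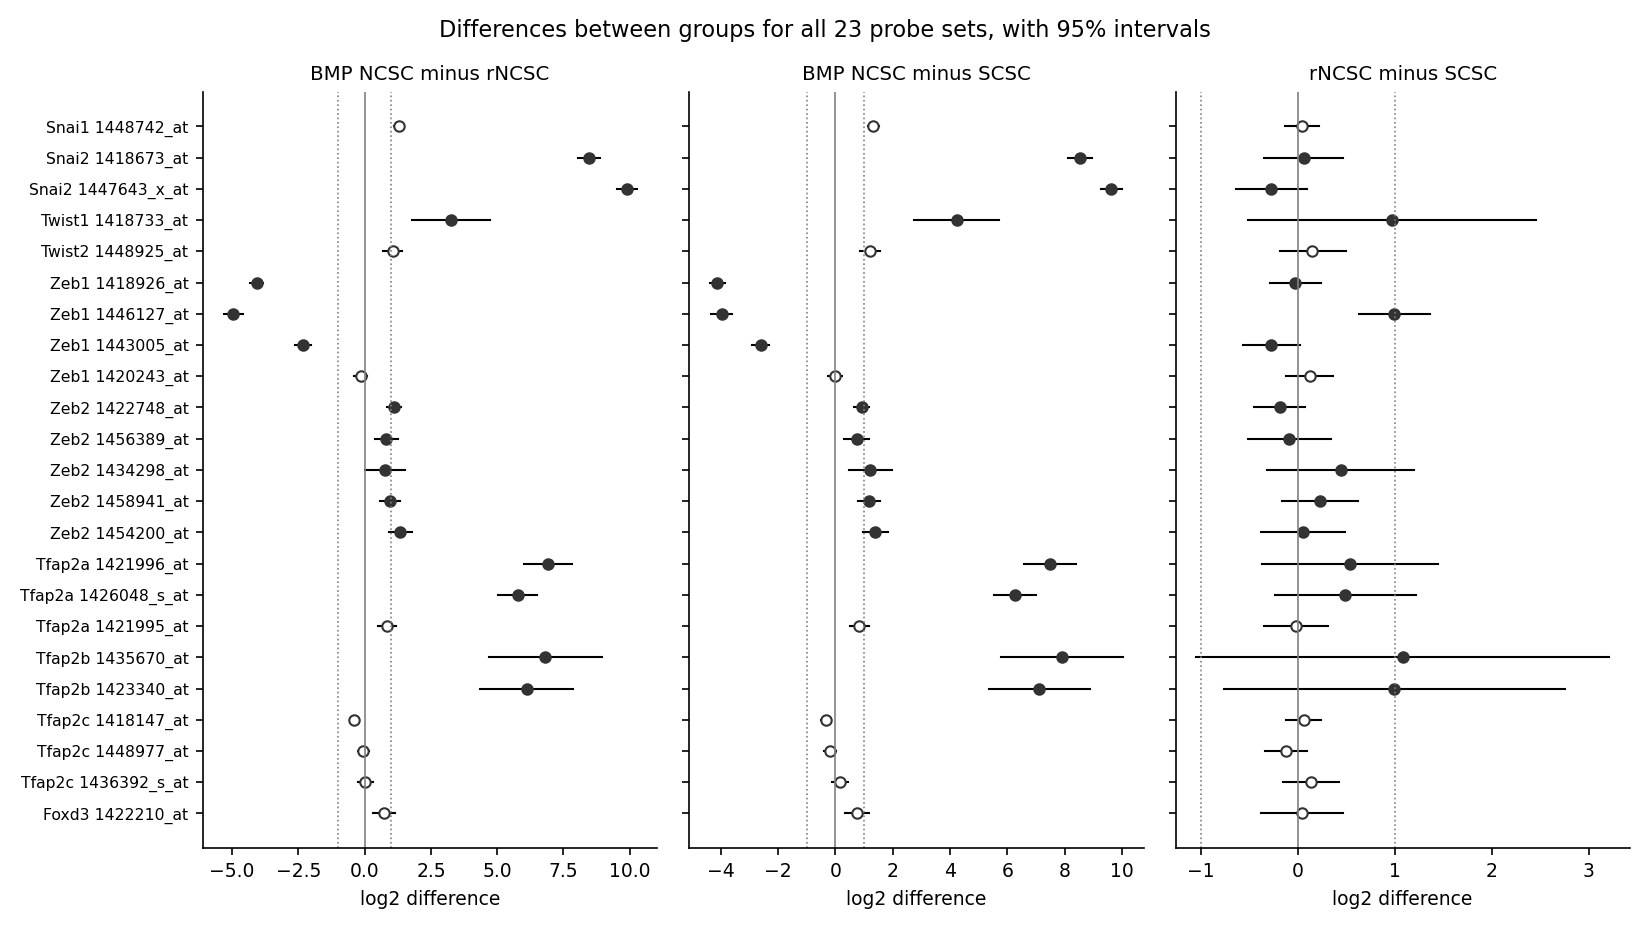
Difference between groups (log2) of all 23 probe sets with 95% intervals, 1 panel per comparison, with rows by gene and probe set. Filled points were tested and are from the fit with the filter, open points are from the fit with no filter, and dotted lines mark differences of 1 either way. The differences from rNCSC and from SCSC have the same direction for all probe sets called, and the intervals for rNCSC minus SCSC lie about 0 for most sets, Zeb1 1446127_at excepted.

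The comparison of BMP NCSC with SCSC combines a difference in tissue with one in BMP4, and shares the BMP NCSC arrays with the comparison above. Of the 15 probe sets tested, 10 were called higher in BMP NCSC and 3 lower, against 21.3% and 23.8% of all probe sets tested. The arrays did not overlap for any of the 15, against 80.8% of all. Passing the filter fixed part of this too. Of the 15, 8 reached it only through BMP NCSC and 2 only through rNCSC and SCSC. With no filter, 12 of the 23 were called higher and 3 lower, against 11.2% and 11.6% of all. The median difference over the 23 was 1.18, against -0.04 over all probe sets.

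Whether DRG spheres grown without BMP4 differ from spinal cord spheres in these genes was tested in the same model. None of the 15 tested probe sets was called higher or lower by limma, against 0% and 0.00502% of all probe sets tested. At an unadjusted p under 0.05 there was 1 of the 15, against 13% of all, and 1 separated the groups fully, against 19.4% of all. That set was Zeb1 1446127_at, higher in rNCSC by 0.99 (95% interval 0.63 to 1.36, unadjusted p = 0.000212, adjusted p = 0.16). The other tested Zeb1 sets differed by -0.03 (interval -0.29 to 0.24) and -0.28 (-0.57 to 0.02), so the probe sets of this gene did not show 1 pattern. For Snai2 the difference was 0.06 (-0.35 to 0.47) and for Zeb2 -0.19 (-0.45 to 0.07). The intervals were wide for the genes with an outlying rNCSC array, at 0.97 (-0.51 to 2.46) for Twist1, 0.54 (-0.37 to 1.45) for Tfap2a and 1.08 (-1.05 to 3.21) for Tfap2b. Without rNCSC 3, Twist1 differed by 0.05, and without rNCSC 2, Tfap2a differed by -0.02 and Tfap2b by -0.20. These intervals bound the differences, and no call does not show that the spheres are alike.

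Genes that act with these factors were taken as lists. The lists overlap, so that Id1, Id3, Msx1 and Msx2, for example, also count among the BMP response genes. Each gene was represented by its probe set with the highest mean, and 22.6% and 21.3% of 10319 genes were called higher and lower in BMP NCSC than in rNCSC, with a median difference of -0.07. In the list of other crest transcription factors, 5 of 14 tested genes were called higher in BMP NCSC and 4 lower (median 0.32). Sox10, a factor of crest and peripheral glia, differed by 7.42, Msx2 by 5.46 and Msx1 by 3.79, both homeobox targets of BMP. Pax3 and Mef2c were the other higher genes. Zic1, which acts at the neural plate border and in dorsal spinal cord, was lower (-10.12), as were Sox8 (-7.88), Gbx2 (-4.74) and Myc. Against SCSC 7 of 14 were higher and 5 lower, where 22.9% and 24% of genes were. The called genes of this list thus lay on both sides, as did those among all genes. Of these 14 genes, 2 reached the filter only through BMP NCSC and 4 only through the other groups, which fixed part of their direction.

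The targets that Snail and Zeb repress could hardly be read in these spheres. Of 25 epithelial genes, 22 were under 5 on all arrays, among them Cdh1, Ocln, Krt8, Krt18, Esrp1 and Grhl2. Of the 3 tested, Patj, a polarity scaffold, was called higher in BMP NCSC than in rNCSC by 4.87 and Epcam, an adhesion protein, by 1.6. Tjp1, a tight junction scaffold, differed by -0.91 (limma adjusted p = 5.8e-05), under the size limit. Patj read 7.63, 7.98 and 7.57 in BMP NCSC and 2.79, 2.86 and 2.91 in rNCSC. Both called genes reached the filter only through BMP NCSC. Of 18 mesenchymal genes tested, 15 were called higher and none lower (median 5.05, with 10 that passed only through BMP NCSC). Col3a1, a fibrillar collagen, differed by 9.53, S100a4, a calcium-binding protein, by 9.31 and the gelatinase Mmp2 by 8.61. Vim, which encodes vimentin, differed by 0.39, Cdh2, which encodes N-cadherin, by -0.83 and the receptor gene Pdgfra by 1.31, and these 3 were not called. Vim (limma adjusted p = 0.0053) and Cdh2 (adjusted p = 0.00072), which was lower in BMP NCSC, missed only the size limit. Pdgfra missed the limit on adjusted p (0.14). Vim was at 13.87 to 14.39 on all of the BMP NCSC and rNCSC arrays. Against SCSC 14 of the 18 were higher and none lower.

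**Figure D4:**
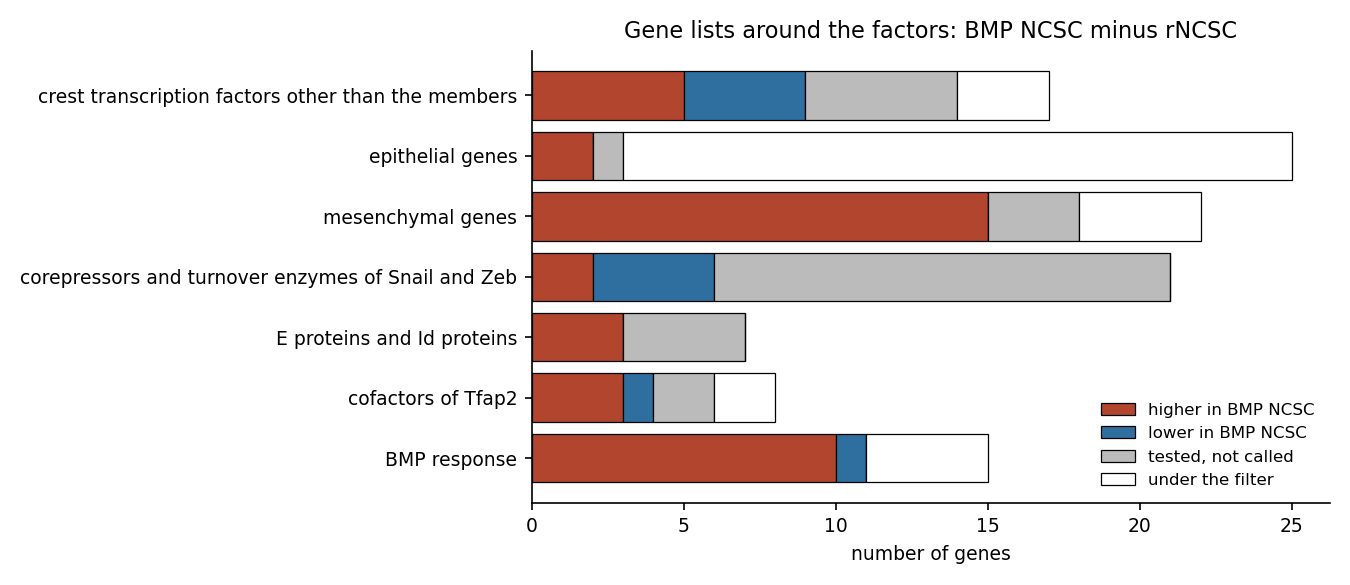
Number of genes in each list by call in BMP NCSC minus rNCSC: higher in BMP NCSC, lower, tested and not called, or under the filter. The mesenchymal and BMP response lists are mostly higher, the epithelial list is mostly under the filter, and the corepressor list is mostly not called.

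All 21 corepressors and turnover enzymes of Snail and Zeb with a value passed the filter either way, so this list carries no such limit. In BMP NCSC 2 were higher and 4 lower than in rNCSC, with a median difference of -0.55. Btrc, the ubiquitin ligase subunit that marks Snail for degradation, differed by 2.11 and Limd1, a LIM protein, by 1.06. Ezh2, the histone methyltransferase of polycomb, fell by 3.71, the DNA methyltransferase gene Dnmt1 fell by 2.73, and the kinase gene Csnk1e fell by 1.54. The arginine methyltransferase gene Prmt5 was lower too. Ezh2 read 7.49, 7.86 and 8.18 in BMP NCSC and 11.55, 11.62 and 11.49 in rNCSC. The higher count was 1 without BMP NCSC 3, rNCSC 1 or rNCSC 2. Against SCSC 2 were higher (Btrc and Ajuba) and 6 lower, and the higher count was 1 without BMP NCSC 2, SCSC 2 or SCSC 3.

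Partners of Twist and of the AP-2 factors did not all move in the same direction. Of 7 E proteins and Id proteins, which pair with Twist or take its partners away, 3 were higher in BMP NCSC than in rNCSC and none lower: Id4 by 6.8, Id1 by 3.2 and Id3 by 1.48. Id4 passed the filter only through BMP NCSC. Id2 differed by 0.16 and was not called. The E protein genes Tcf3, Tcf4 and Tcf12 differed by -0.86, -0.22 and -0.82, under the size limit, and were not called there. Against SCSC, Tcf3 was called lower (-1.18). Of 6 AP-2 cofactors tested, 3 were higher and 1 lower. Cited2, a coactivator, differed by 3.37, and the inhibitors of AP-2 activity Kctd15 and Kctd1 by 2.56 and 1.32. Cited1 read 2.99, 3.06 and 3.12 in BMP NCSC and 6.22, 5.84 and 7.11 in rNCSC, a difference of -3.33, and passed the filter only through the other groups. Among 16 relatives of the factors, such as Snai3, Scrt1 and Tfap2d, none passed the filter and 15 were under 5 on all arrays. Of 11 tested BMP response genes, 10 were higher in BMP NCSC than in rNCSC, led by Smad6 (7.57), Bmp2 (7.45) and Grem1 (7.15), with 6 of the 11 passing only through BMP NCSC. Hey1 was called lower (-1.04, adjusted p = 0.03), a call that was lost without BMP NCSC 1, BMP NCSC 3, rNCSC 1 or rNCSC 2. Between rNCSC and SCSC no gene of these 8 lists was called by limma, against 0% and 0.00969% of genes called higher and lower.

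Markers of several cell types that such spheres could hold also differed between BMP NCSC and the other groups, in both directions. Their part in the results was not tested. The counts below stand against 22.6% and 21.3% of all tested genes called higher and lower than in rNCSC. The filter fixed part of the directions. Summed linear signal of 12 cartilage and mesenchyme genes was 61466 to 81918 in BMP NCSC, 453 to 774 in rNCSC and 645 to 771 in SCSC. In BMP NCSC 8 of 9 tested genes were higher than in rNCSC, and 7 of the 9 passed the filter only through BMP NCSC. Matn1, Col1a1 and Col1a2 were under 5 on all arrays, and Col3a1 is also in the mesenchymal list. Of 6 Schwann cell and satellite glia genes tested, 5 were higher in BMP NCSC than in rNCSC, and Fabp7 was lower. Of these 6, 4 passed the filter only through BMP NCSC and 1 only through the other groups. Sox10, Erbb3 and Ngfr were under 5 on all rNCSC arrays. The other higher genes were not, with Cdh19 at 7.03, 7.6 and 7.74 and S100b at 5.02, 4.69 and 7.95 in rNCSC. Foxd3 and Gfra3 were under 5 on all arrays. With Fabp7 included, the list's summed signal was 14925 to 16518 in BMP NCSC, 21967 to 22917 in rNCSC and 22397 to 22504 in SCSC. Of 10 CNS progenitor genes tested, 9 were lower in BMP NCSC, and 7 of the 10 passed the filter only through rNCSC and SCSC. The list's summed signal was 6223 to 7234 in BMP NCSC, 54433 to 57130 in rNCSC and 55330 to 57014 in SCSC. The remaining gene, Sox2, was not called (-0.32 against rNCSC). It read 12.59, 12.48 and 12.59 in BMP NCSC and made up most of the sum there. Olig1, Olig2, Pax6, Sox1, Sox3, Fabp7 and Prom1 were under 5 on all BMP NCSC arrays. Both smooth muscle genes tested were higher (summed signal 1299 to 6848 in BMP NCSC, 95 to 99 in rNCSC and 84 to 100 in SCSC), while Cnn1, Myh11, Myocd and Des were under 5. These higher genes, Acta2 and Tagln, are also counted in the mesenchymal list, and Tagln passed the filter only through BMP NCSC. Of 6 meningeal genes tested 4 were higher and 2 lower, with sums of 9610 to 17731 in BMP NCSC, 4792 to 8031 in rNCSC and 4954 to 5744 in SCSC. Of these 6, 3 passed the filter only through BMP NCSC and 2 only through the other groups.

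Other markers were mostly at the floor. Of the sensory neuron markers of the DRG, Isl1, Pou4f1, Prph, Runx3, Avil and Scn10a were under 5 on all 9 arrays. Runx1 was higher and Ntrk2 and Ntrk3 lower in BMP NCSC than in rNCSC. Runx1 passed the filter only through BMP NCSC, and Ntrk2 and Ntrk3 only through the other groups. The summed signal of the sensory neuron list was 1010 to 1673 in BMP NCSC, 640 to 984 in rNCSC and 465 to 740 in SCSC. Runx1, at 10.6, 10.21 and 9.79, made up most of the BMP NCSC sum, and Ntrk2 and Ntrk3 most of the others. The melanocyte genes Dct, Pmel, Tyr, Tyrp1 and Mlana were under 5 everywhere, while Mitf, the pigment cell regulator, was higher in BMP NCSC by 3.43 (sums 779 to 1400 in BMP NCSC, 140 to 185 in rNCSC and 112 to 127 in SCSC). Of 10 epidermal genes, 9 were under 5 on all arrays, Krt5, Krt14 and Trp63 among them, and the other was Epcam (sums 123 to 154 in BMP NCSC, 93 to 111 in rNCSC and 90 to 114 in SCSC). All 8 endothelial, 8 microglial and 8 skeletal muscle genes were under 5 on all arrays.

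Genes with the most similar 9-array profile were found by the root mean square difference after centring, among 10319 genes. They describe these arrays, which share a few large group differences. Snai2 lay nearest to Apod (0.13), Lrrc17 (0.17) and Gpc3 (0.18). Twist1 lay nearest to Pmp22 (0.3), Adamtsl3 (0.36) and Igfbp4 (0.37), which were all raised on rNCSC 3 as well, Pmp22 reading 7.58, 7.59 and 10.71 in rNCSC. Zeb1 lay nearest to Mns1, Cenpk and Mcm5 (0.13 each), of which Cenpk is a kinetochore protein and Mcm5 a subunit of the replicative helicase. Mcm5 read 7.53, 8.18 and 8.04 in BMP NCSC, 11.89, 11.95 and 12.0 in rNCSC, and 12.15, 12.04 and 12.26 in SCSC. Zeb2 lay nearest to Pcgf5 (0.08), Dennd3 (0.1) and Togaram1 (0.1), and Tfap2a to Eva1b (0.42), Runx1 (0.44) and Kank1 (0.44). For Tfap2b, the nearest were Kank1 (1.0), Lin7a (1.02) and S100a1 (1.05), each of them also highest on rNCSC 2 among the rNCSC arrays, with Lin7a at 3.99, 5.91 and 3.9 in rNCSC.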

How the data were processed

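Values came from 9 arrays, grouped by title, which also numbers the replicates. The authors deposited 1 log2 value for each probe set. The submitters' processing notes name GCRMA, without a version. That method corrects background by probe sequence, equalises the arrays' distributions and summarises the probes of a set. A change in total RNA per cell would therefore not show.

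Of 45101 probe sets, 64 controls were left out. The supplied platform annotation gave 1 gene symbol to 34958, several to 932, which were not named, and none to 9211. Identifiers of 34754 matched RefSeq genes of assembly GRCm38.p6. The labels name no build, so gene coordinates are given for promoters alone.

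Probe sets reaching 5 on at least 3 arrays (19914 probe sets, 10319 genes) were fitted with limma 3.58.1 in R 4.3.3 as 3 group means over 9 arrays. Variances were moderated (6 residual and 2.51 prior degrees of freedom), p was two-sided and Benjamini-Hochberg adjusted over all probe sets tested. A call needed an adjusted p below 0.05 and an absolute difference of at least 1. Lists and nearest profiles used 1 probe set per gene, that with the highest mean. The fit was also run on simulated data, with independent noise and far fewer changed probe sets than were called in BMP NCSC. That run therefore does not give the error rate on these arrays. Alternatives changed the filter, normalization, variance model, arrays, thresholds, replicate block and each array left out.

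All 23 probe sets of the factors are shown in the figures, and the text does not give each by its identifier. Of each list up to 3 called genes in each direction are named, and other list genes were picked with values in view. The factors and lists were chosen with earlier results of these data known.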

Additional observations from a re-analysis of the deposited data

How the results depend on the processing

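Of the factors' differences, 801 values under the alternatives kept their direction and side of the threshold, 7 gained a call and 1 lost it, all 8 of them of Zeb2 probe sets. A further 7 changed sign, all of them rNCSC minus SCSC differences that passed no test, with 1 array left out. Part of the 801 could not change direction. Changed call thresholds reuse the same differences, and leaving out an array of the group outside a comparison leaves its difference unchanged. Without rNCSC 2, the Tfap2b differences were -0.2 and -0.06 in place of 1.08 and 0.99, and that of Tfap2a 1421996_at was -0.02 in place of 0.54. Leaving out any 1 array gave -0.2 to 1.73 for Tfap2b 1435670_at, -0.06 to 1.52 for Tfap2b 1423340_at, -0.02 to 0.83 for Tfap2a 1421996_at, -0.08 to 0.01 for Zeb1 1418926_at, -0.16 to 0.04 for Zeb2 1456389_at and -0.12 to 0.26 for Zeb2 1454200_at. Calls among the 15 tested probe sets ranged from 9 to 11 higher and stayed at 3 lower for BMP NCSC minus rNCSC without any 1 array, and from 9 to 10 higher and 3 lower for BMP NCSC minus SCSC. Without any 1 array the mesenchymal list had 13 to 15 genes higher in BMP NCSC than in rNCSC, and the other crest factors 5 to 7 higher and 4 to 5 lower. Without a size limit, limma called 6705 probe sets of all genes higher and 8211 lower in BMP NCSC than in rNCSC, and 6764 higher and 8501 lower than in SCSC. For rNCSC minus SCSC over all probe sets, leaving out 1 array gave 0 to 25 higher and 0 to 58 lower, the highest of each without rNCSC 2. The lower count was 0 in place of 1 with an intensity trend and robust prior, with the 6 arrays compared alone, at an adjusted p below 0.01, and with the replicate block. Deviations of same-numbered arrays correlated at 0.08, 0.2 and 0.1 for BMP NCSC with rNCSC, at 0.08, 0.18 and 0.31 for BMP NCSC with SCSC, and at 0.05, 0.35 and 0.23 for rNCSC with SCSC. All were positive, whereas differently numbered arrays of different groups ran from -0.34 to 0.21 and were mostly negative. Each set of same-numbered pairs held a pair at or under 0.1, and BMP NCSC 2 correlated best with SCSC 1, at 0.21. The numbers were not taken as pairing in the main fit, and whether same-numbered arrays share a batch was not tested. With the replicate block 9 probe sets of the factors were higher and 3 lower in BMP NCSC than in rNCSC, 10 and 3 than in SCSC, and 0 calls changed. Precision is limited by 3 arrays per group, and levels under 5 by signal over background. The source of the rNCSC 2 and rNCSC 3 signals was not tested.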

Other observations

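The rNCSC arrays that carried isolated signals of the factors differed from their group in other genes too. rNCSC 3, with Twist1 at 5.48, had 60 genes at least 2 above both other rNCSC arrays. rNCSC 2, with Tfap2b at 6.14 and Tfap2a at 5.18, had 26 such genes. Twist1 and Tfap2b are themselves among the genes counted. Such counts were not confined to rNCSC, as BMP NCSC 3 had 38 genes at least 2 above both others of its group. Mean Pearson correlation with the BMP NCSC arrays was 0.663 for rNCSC 3 and 0.639 and 0.633 for the first and second. With the SCSC arrays it was 0.973 for rNCSC 3 and 0.984 and 0.988 for the first and second. The mean log2 level of the mesenchymal list was 6.01 on rNCSC 3, against 5.59 and 5.55.

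Sex-linked genes differed between arrays of a group. Xist, the RNA that coats the inactive X chromosome, read 11.68, 11.67 and 10.67 in BMP NCSC, 2.67, 12.19 and 2.37 in rNCSC, and 2.4, 11.75 and 2.62 in SCSC. The Y-linked gene Uty read 8.64, 1.43 and 8.43 and Kdm5d 8.77, 2.03 and 8.73 in rNCSC, whereas Eif2s3y, also Y-linked, read 1.82, 2.01 and 10.6 there. The rNCSC 2 array, which had Xist and was near the floor for these 3 Y-linked genes, was the array with Tfap2a and Tfap2b above the other rNCSC arrays. SCSC 2 had both Xist and the Y-linked genes, with Eif2s3y at 8.15, Kdm5d at 6.21 and Uty at 5.42, and its Tfap2b values were 2.43 and 2.66. The BMP NCSC arrays also had both, with Eif2s3y at 8.87, 8.4 and 9.97. The part of sex or of tissue source in these values was not tested.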
